A study of Mus musculus with 19 samples.

Results

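H3K9me3 was examined around 3 loci outside the list of imprinted genes used here, in or near *Neat1*, *Fdft1* and *C5ar1*, in mouse embryonic stem cells (ESCs) that lose the maintenance DNA methyltransferase *Dnmt1*. The 3 loci were chosen by their loss of H3K9me3 reads in *Dnmt1* cKO cells at day 8. For each, a named region of 2 kb and every region within 20 kb of it was taken. This gave 21 regions per locus and 63 in all, of 1327469 regions of 2 kb over the genome. Because day 8 H3K9me3 chose the loci, its values are given as a description. Day 4 H3K9me3 and the other 2 marks come from other libraries. They are not fully independent, since the loci were chosen with earlier results of these data known.

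The labels give the background strain of these ESCs as E14, whereas the methods of the study give the conditional line as C57BL/6, and the conflict could not be settled here. Control cells were labelled Wildtype, and in conditional knockout (cKO) cells, labelled Dnmt1 KO, Cre recombinase induced with tamoxifen (4OHT) had deleted *Dnmt1*. ChIP-seq, which sequences the DNA bound to a modified histone, was done for H3K9me3, H3K9me2 and H3K27me3 at day 4 and day 8. For every mark, day 4 was covered by 1 library per genotype and day 8 by 2, and a single input library of chromatin without immunoprecipitation came from control cells. The labels number the day 8 libraries 1 and 2 without saying whether they came from separate cultures, so their spread may be technical. How many clones the cKO line stands for was not stated in the labels, and the controls are named only by genotype, so effects of 4OHT itself cannot be told apart from the deletion.

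DNMT1 copies DNA methylation onto the new strand after replication, so methylation is diluted as cells divide without it. H3K9me3 marks silent chromatin and is written in ESCs mainly by SETDB1, which KRAB zinc finger proteins bring to DNA through KAP1. One of them, ZFP57, binds the letters TGCCGC when their CpG is methylated and keeps H3K9me3 at imprinting control regions, where the mark depends on DNA methylation. *Neat1* makes the long noncoding RNA that builds paraspeckles, *Fdft1* encodes squalene synthase of the cholesterol pathway, and *C5ar1* encodes a receptor for the complement fragment C5a.

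Depth was similar in most libraries. ChIP libraries held 14627174 to 26181489 reads, except for the H3K9me3 cKO library of day 8 replicate 1 with 5669098, and the input held 19010249. The *Dnmt1* region with the largest relative drop, chr9:20744001-20746000, held 49 reads over the day 8 control libraries of the 3 marks and 1 read over the cKO libraries. The same region held 23 and 9 reads at day 4, so cKO labels went with fewer reads there on both days. The region was picked by its drop, so these reads describe the labels and do not test them.

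In control cells each locus carried a narrow stretch of H3K9me3. A run was defined as the unbroken stretch of regions around the named one with at least 2-fold more H3K9me3 than input in RPM, reads scaled to 1000000 of the library total, in both day 8 control libraries. The run at *Neat1* was 4 kb long, the one at *Fdft1* also 4 kb, and the one at *C5ar1* 6 kb. Together the runs took 7 of the 63 regions and left 56 as flanks.

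The 3 runs lie in different places relative to their genes in the NCBIM37 annotation. At *Neat1* (ENSMUSG00000092274, minus strand, chr19:5824708-5845478) the run covered chr19:5838001-5842000, inside the long noncoding exon, and ended 3478 bp from the transcription start site. At *Fdft1* (ENSMUSG00000021273, minus strand, chr14:63763990-63796630) it covered chr14:63786001-63790000 in an intron, 6630 bp from the start site. At *C5ar1* (ENSMUSG00000049130, minus strand, chr7:16832092-16844889) it covered chr7:16848001-16854000 between genes, 3112 bp upstream of the *C5ar1* start and 5041 bp from the start of *Prr24*. None of the 3 runs reached an annotated start site.

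At *Fdft1* and *C5ar1* the mark rose within 1 region on the side of lower coordinates and faded more slowly on the other side. At *Neat1*, the 2 regions of the run stood 3.01-fold to 3.24-fold above input in the day 8 controls, while the regions on its sides stood at 1.67-fold and 1.94-fold and at 1.16-fold and 1.37-fold, short of the limit. At *Fdft1*, the run stood 4.30-fold to 10.6-fold above input, on few input reads (5 and 6). The region before it was at 0.488-fold and 0.618-fold and the region after it at 1.43-fold and 2.34-fold, so only the first control library kept it out. At *C5ar1*, the run stood 2.17-fold to 4.25-fold above input, against 0.689-fold and 0.825-fold just before it and 1.54-fold and 1.92-fold just after it. In the day 4 control library, which did not set the runs, the 7 regions stood 2.69-fold to 7.58-fold above input.

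**Figure D1:**
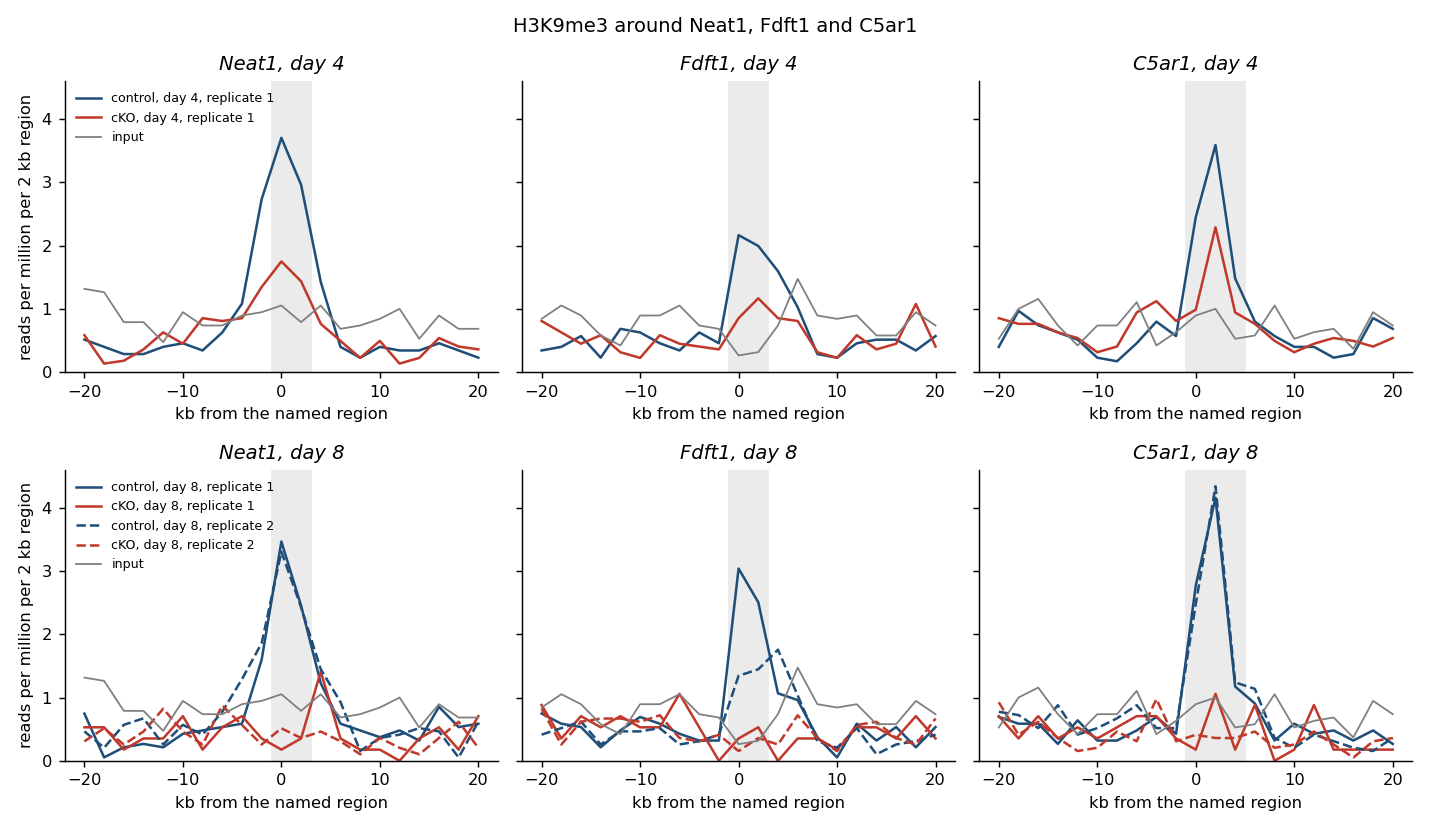
H3K9me3 in RPM per 2 kb region (y axis) against the distance in kb from the named region (x axis), for control (blue), cKO (red) and input (grey) libraries at day 4 (top) and day 8 (bottom, replicate 1 solid and replicate 2 dashed). Grey bands mark the runs of 4, 4 and 6 kb. Control peaks stand above input, day 4 cKO lines lie between control and flank levels, and day 8 cKO lines show no peak.

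The run regions held more CpG sites than most, and 5 of the 7 held the ZFP57 letters. Their median was 29 CpG sites, against 24 in the flanks and 14 over all regions, with a median GC content of 45.9% against 47.5% and 41.4%. TGCCGC on either strand stood in both regions at *Neat1*, in 1 of 2 at *Fdft1* and in 2 of 3 at *C5ar1*. It was present in 10.9% of all regions without unknown bases, in 23.6% of regions with a CpG number in the range of the runs, in 30.2% of the regions with strong H3K9me3 (at least 4-fold above input in both day 8 controls, with at least 5 input reads), and in 14 of the 56 flank regions. A match is a description of the letters and does not show that ZFP57 bound there.

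The 5 matches in the runs are printed with 40 bases on each side, as a description of the letters. Sequences are from the NCBIM37 genome, 5′ to 3′ on the strand given, and capitals mark TGCCGC.
Neat1, chr19:5839108-5839193, minus strand: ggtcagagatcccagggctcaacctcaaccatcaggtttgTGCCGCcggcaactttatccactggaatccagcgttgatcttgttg
Neat1, chr19:5840676-5840761, plus strand: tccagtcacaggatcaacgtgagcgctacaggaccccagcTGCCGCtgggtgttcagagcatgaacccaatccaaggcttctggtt
Fdft1, chr14:63787930-63788015, minus strand: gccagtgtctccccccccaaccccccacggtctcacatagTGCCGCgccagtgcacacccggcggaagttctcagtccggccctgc
C5ar1, chr7:16848513-16848598, minus strand: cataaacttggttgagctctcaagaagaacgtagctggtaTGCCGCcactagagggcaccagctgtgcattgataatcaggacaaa
C5ar1, chr7:16850410-16850495, plus strand: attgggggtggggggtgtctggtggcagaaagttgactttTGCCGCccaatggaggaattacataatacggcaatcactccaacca
The 2 matches at *Neat1* fall in its noncoding exon, the match at *Fdft1* in an intron, and the 2 at *C5ar1* between genes. The named region of each locus held 1 match.

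At day 4 H3K9me3 was already lower in cKO at all 3 loci. At *Neat1* the run held 117 reads in the control and 71 in the cKO, which left 47.8% in RPM (95% limits 35.1% to 64.7%). At *Fdft1* it held 73 and 45 reads, which left 48.5% (32.7% to 71.3%). At *C5ar1* it held 132 and 94 reads, which left 56.1% (42.6% to 73.6%). The upper limits all lie under 100%. They are exact binomial limits that cover counting error only, and with 1 library a group the comparison is between these libraries and has no replicate check.

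The flanks of the same libraries kept most of their reads. They held 198 and 219 reads at *Neat1*, which left 87.1%, then 180 and 220 at *Fdft1* (96.2%), and 170 and 248 at *C5ar1* (115%). The 95% limits of all 3 flanks include 100%, and those of the runs do not. In bulk chromatin, fewer cells with the mark and less of the mark per cell cannot be told apart.

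Within the runs, the named regions had the lowest ratios at day 4, with limits that overlap those of their neighbours. Control and cKO held 65 and 39 reads in the named region of *Neat1*, 38 and 19 in that of *Fdft1*, and 43 and 22 in that of *C5ar1*. The RPM ratios were 0.472 (95% limits 0.309 to 0.713), 0.394 (0.214 to 0.700) and 0.403 (0.229 to 0.688), each at least 2-fold lower. The second region of the *Neat1* run held 52 and 32 reads, a ratio of 0.485 close to that of its neighbour. The second region at *Fdft1* held 35 and 26 reads (0.585). The remaining regions at *C5ar1* held 63 and 51 reads (0.637) and 26 and 21 reads (0.636), and the limits of the last, 0.340 to 1.18, include no change. The summit of the *C5ar1* peak lay in its second region, so the named region with the lowest ratio was not the one with the most reads.

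Over all regions with a read in either day 4 library, 5.34% were at least 2-fold lower in cKO. Among the members this held for 3 of the 3 named regions, 4 of the 7 run regions and 10 of 63 in all. The 6 outside the runs included the region that adjoins the *Neat1* run. Of the regions with strong H3K9me3, which carry less counting error, 77 of 7816 (0.985%, the members left out) were at least 2-fold lower. Summed over the class, the strong regions kept 88.2% of their reads in RPM at day 4, against 51.4% summed over the 7 run regions. Only 3 member regions met the limit of the strong class, so the other run regions stood lower over input than the class.

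Imprinted loci were set beside the members, taking for each of 16 listed genes the region within 5 kb with most control H3K9me3. Of 15 that were annotated, 14 were at least 2-fold above input, and 13 of these held TGCCGC. Their regions kept a median of 64.9% at day 4, with a range of 51.6% to 101%. The 3 named regions, with ratios of 0.394 to 0.472, lie under that range, and 0 of the 14 were at least 2-fold lower. Other values of the loci lie inside it, namely the summit of the *C5ar1* peak (0.637), the whole *C5ar1* run (56.1%) and the second *Fdft1* region (0.585). The imprinted regions were taken at their highest control signal and the named regions were not. The difference was not tested, since each value comes from 1 pair of libraries and the named regions were chosen among many for their loss at day 8.

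At day 8 little H3K9me3 was left over the runs. Control and cKO held 111 and 3 reads in replicate 1 and 111 and 17 in replicate 2 at *Neat1*. At *Fdft1* they held 104 and 5, then 54 and 10. At *C5ar1* they held 152 and 8, then 156 and 22. Both cKO libraries stood under both control libraries at every run, also in RPM, but this contrast chose the loci and supports nothing further.

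With the reads of both pairs pooled, the runs kept 13.7% of their H3K9me3 at *Neat1* (95% limits 8.19% to 21.6%). They kept 14.4% at *Fdft1* (7.87% to 24.5%) and 14.8% at *C5ar1* (9.80% to 21.5%). Pooling divides summed reads by summed library totals, so deeper libraries weigh more. At *Fdft1* the pooled value lies under those of both pairs, 15.9% and 18.4%. The log2 changes that follow are means over libraries and are not pooled. The log2 change was -3.10 ± 0.36 (SE without pairing, n = 2 control and 2 cKO libraries) at *Neat1*, -2.55 ± 0.63 at *Fdft1* and -2.68 ± 0.16 at *C5ar1*. Over the 4 combinations of a cKO with a control library, the change at *Fdft1* ranged from -3.43 to -1.66. The first pair of *Neat1* rests on 3 cKO reads. Without replicate 1, which holds the shallow library, the *Neat1* run kept 15.2%, *Fdft1* 18.4% and *C5ar1* 14.0%. The limits of the 3 loci overlap.

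**Figure D2:**
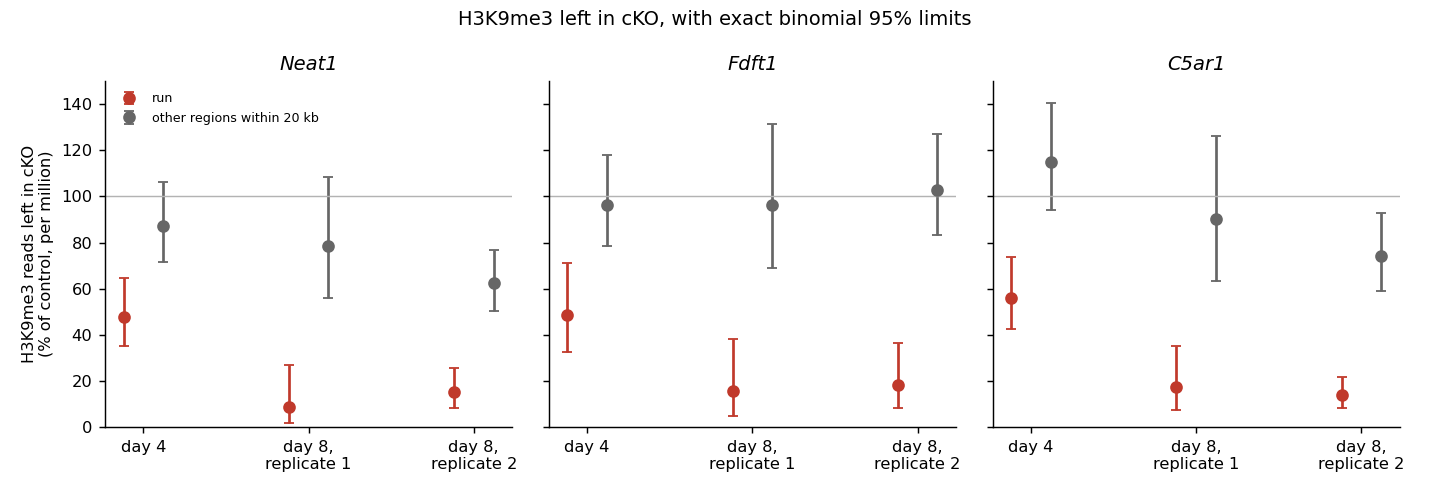
H3K9me3 RPM left in cKO as a percent of the control (y axis) over each run (red) and the other regions within 20 kb (grey), for the day 4 pair and the 2 day 8 pairs (x axis), with exact binomial 95% limits. The runs kept 47.8% to 56.1% at day 4 and 8.94% to 18.4% at day 8, while the flanks kept 62.3% or more.

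In RPM the peak was lost down to the level of its surroundings. Per region, the cKO libraries of day 8 held 0.265 and 0.437 RPM over the *Neat1* run and 0.436 and 0.395 over its flanks. Over the *Fdft1* run they held 0.441 and 0.257, with 0.483 and 0.495 in the flanks. Over the *C5ar1* run they held 0.470 and 0.377, with 0.441 and 0.394 in the flanks. In the control libraries the runs had stood at 2.96 and 2.87 for *Neat1*, 2.77 and 1.39 for *Fdft1*, and 2.70 and 2.69 for *C5ar1*. The *Fdft1* run was the one on which the control replicates differed. Set against input, the *Fdft1* run in the day 8 cKO stood at 1.60-fold and 0.892-fold, above its flanks at 0.588-fold and 0.598-fold, on only 11 input reads. The *Neat1* run stood at 0.331-fold and 0.481-fold beside flanks at 0.523-fold and 0.470-fold. The *C5ar1* run stood at 0.613-fold and 0.473-fold beside flanks at 0.616-fold and 0.547-fold.

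In the named region of *Neat1* the day 8 reads were 65 and 64 in the controls and 1 and 10 in the cKO. In that of *Fdft1* they were 57 and 26 against 2 and 3, and in that of *C5ar1* 52 and 48 against 1 and 8. The second region of the *C5ar1* run, the highest of all 7, fell from 78 and 84 reads to 6 and 7.

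Of the 63 member regions, 10 were at least 2-fold lower in both day 8 pairs, including all 7 of the runs, where the background was 2.31% of regions. Of the other 3, 1 adjoined the *Neat1* run (30 and 36 reads in the controls, 2 and 5 in the cKO), and 1 adjoined the *Fdft1* run (20 and 34 against 0 and 5). These shoulders lost the mark with the run, and at day 4 they stood at 48 against 30 reads and 28 against 19. Counted in replicate 2 alone, 23 member regions were at least 2-fold lower (background 9.46%), and in replicate 1 alone, with its shallow library, 20 (background 18.4%). These single-pair counts were made after seeing the data.

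Flanks at day 8 kept 67.9% at *Neat1* (95% limits 57.0% to 80.7%), 100.1% at *Fdft1* (84.6% to 118%) and 79.3% at *C5ar1* (66.0% to 95.1%). The flanks of *Neat1* include its shoulders. Summed over the class, the strong regions of the genome kept 96.9% and 81.6% in the 2 pairs, and the 7 run regions kept 14.4% and 15.2%. The imprinted regions kept a median of 19.5% and 12.0%, close to the runs, though a median and a ratio of summed reads are different measures.

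H3K9me2, the dimethyl form of the same lysine, was low over the runs, on 6 to 41 reads per library. At day 8 its ratios lay near those of the flanks at *Fdft1* and *C5ar1*, and the larger one at *Neat1* had limits that include the ratio of its flanks. The *Neat1* run held 12 and 15 reads at day 4 in control and cKO, a ratio of 0.917 (95% limits 0.401 to 2.15). At day 8 it held 6 and 9 reads in replicate 1 and 8 and 23 in replicate 2, a pooled ratio of 2.11 (1.09 to 4.27), with a log2 change of 0.92 ± 0.69 (SE without pairing, n = 2 and 2 libraries) that is within the spread between libraries. This pooled ratio lies above those of replicates 1 and 2, at 1.75 and 2.05, whose limits include 1. The flanks of *Neat1* were at 1.59 in the same libraries, and at 1.20 and 1.71 in replicates 1 and 2.

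The *Fdft1* run held 10 and 12 H3K9me2 reads at day 4 (ratio 0.881), then 8 and 9, and 9 and 18 at day 8, a pooled ratio of 1.46 (95% limits 0.769 to 2.86) beside flanks at 1.47. Its 2 pairs gave 1.32 and 1.43, both under the pooled ratio. The *C5ar1* run held 20 and 35 reads at day 4 (1.28), then 24 and 19, and 26 and 41 at day 8, a pooled ratio of 1.11 (0.747 to 1.64) beside flanks at 1.17. The pooled ratios of the *Fdft1* and *C5ar1* runs thus lay near those of their flanks, with limits too wide to exclude a difference. In all 3 windows the cKO library of replicate 2 held the most H3K9me2 in RPM, and its part in these ratios was not tested.

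In limma fits to the day 8 H3K9me2 values of 1254661 regions, 0 regions passed a Benjamini-Hochberg adjusted p of 0.05 (0%), and 0 of 63 members did. At an unadjusted p under 0.05 there were 2 members, against 5.68% of all regions. The only one of them in a run was the named region of *Neat1*, which held 5 and 2 reads in the controls and 7 and 11 in the cKO (log2 change 1.34, SE 0.44, limma adjusted p = 0.846). Limma-voom on the recovered reads called 12 regions over the genome and 0 members.

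Single regions were also counted for H3K9me2. At day 4, 5 of 63 members were at least 2-fold lower in cKO, against 6.02% of all regions, and 0 of these were in a run. At day 8, 0 members were at least 2-fold lower in both pairs (background 0.519%) and 1 was at least 2-fold higher (background 2.13%). That region, 12 kb from the named one at *Neat1*, overlaps *Gm9783* and *Frmd8* and held 0 and 2 reads in the controls and 2 and 7 in the cKO. In replicate 2 alone 24 of 63 members were at least 2-fold higher (background 12.6%), and in replicate 1 alone 12 of 63 (background 7.54%). Both single-pair counts lie above the share over all regions, with 1 run region in each. They were made after seeing the data.

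H3K27me3, the mark of Polycomb complex PRC2, differed between the loci. In RPM it was low over the runs at *Neat1* and *Fdft1* and higher at *C5ar1*. The day 8 controls held 0.241 and 0.494 RPM per region at *Neat1*, 0.433 and 0.382 at *Fdft1*, and 1.12 and 1.05 at *C5ar1*. Set against input they stood at 0.270-fold and 0.541-fold, at 1.47-fold and 1.30-fold on only 11 input reads, and at 1.39-fold and 1.29-fold. Over input the *Fdft1* run thus stood near the *C5ar1* run, with the *Neat1* run below both.

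The *Neat1* run held 15 and 15 H3K27me3 reads in control and cKO at day 4, a ratio of 1.18 (95% limits 0.540 to 2.60). At day 8 the controls held 10 and 22 reads and the cKO 6 and 9, a pooled ratio of 0.435 (0.219 to 0.828), with a log2 change of -1.11 ± 0.53 (SE without pairing, n = 2 and 2 libraries). The cKO libraries lay below the controls, at 0.149 and 0.172 RPM per region, but replicate 2 carried most of the difference. The flanks were at 0.817.

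The *Fdft1* run held 16 and 10 reads at day 4 (ratio 0.740, 95% limits 0.300 to 1.74). At day 8 it held 18 and 9, then 17 and 9, a pooled ratio of 0.478 (0.255 to 0.867) and a log2 change of -1.05 ± 0.21. The flanks were at 0.808. Both cKO libraries lay below both controls, on no more than 18 reads per library.

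The *C5ar1* run held 85 and 55 reads at day 4 (ratio 0.767, 95% limits 0.536 to 1.09). At day 8 it held 70 and 74, then 70 and 78, a pooled ratio of 1.01 (0.796 to 1.28) and a log2 change of 0.02 ± 0.16. Control and cKO overlapped, at a ratio near 1 where H3K9me3 was at 14.8%, and the limits leave room for a change of up to 1.28-fold.

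**Figure D3:**
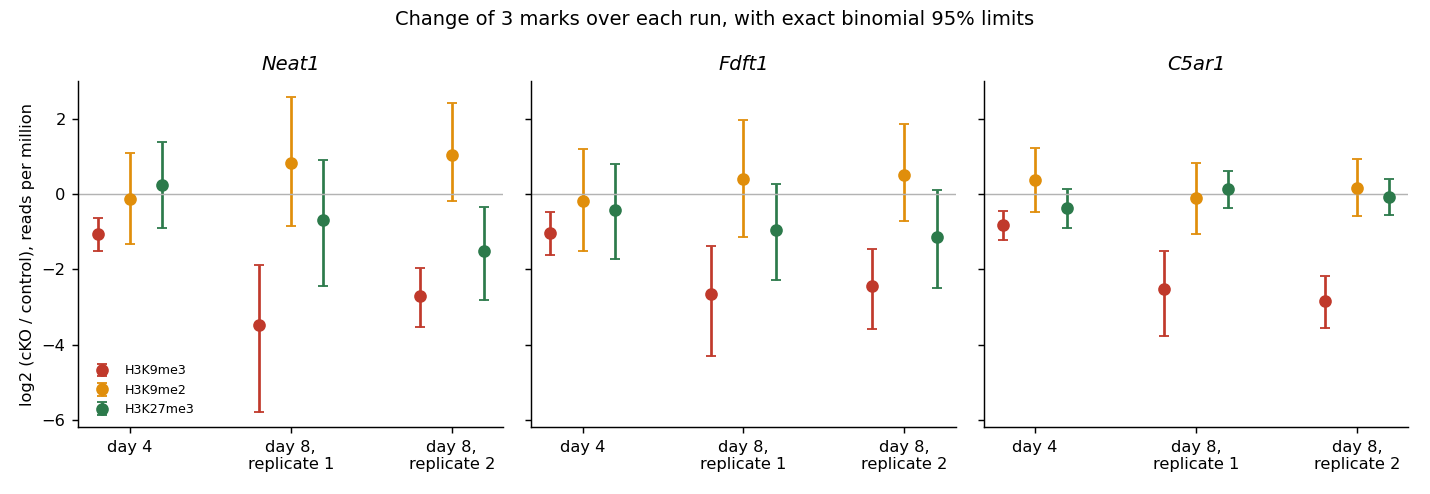
The log2 ratio of cKO to control RPM (y axis) over each run for H3K9me3 (red), H3K9me2 (orange) and H3K27me3 (green), for the day 4 pair and the 2 day 8 pairs (x axis), with exact binomial 95% limits. H3K9me3 lies below 0 in every pair, and the limits of H3K9me2 and H3K27me3 include 0 except for H3K27me3 at Neat1 in day 8 replicate 2.

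Next to the *C5ar1* run stood an H3K27me3 peak of its own. The region 6 kb from the named one held 103 and 107 reads in the day 8 controls and 69 and 79 in the cKO, with 92 against 60 at day 4. The region at 8 kb, at the 3′ end of *Prr24*, held 133 and 139 against 67 and 67, with 104 against 86 at day 4. Both cKO libraries of day 8 lay under both controls in each, at ratios of 0.690 and 0.628 for the first and 0.519 and 0.410 for the second. The H3K9me3 and H3K27me3 peaks thus lay side by side, with their summits in reads 6 kb apart. Over input the H3K27me3 summit was instead the region at 6 kb. It stood at 8.23-fold and 7.98-fold in the day 8 controls, against 5.95-fold and 5.81-fold at 8 kb. In the limma fit the region at 8 kb had a log2 change of -1.12 (SE 0.38) and a Benjamini-Hochberg adjusted p of 0.615, so it did not pass. It was picked for description after its values were seen.

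**Figure D4:**
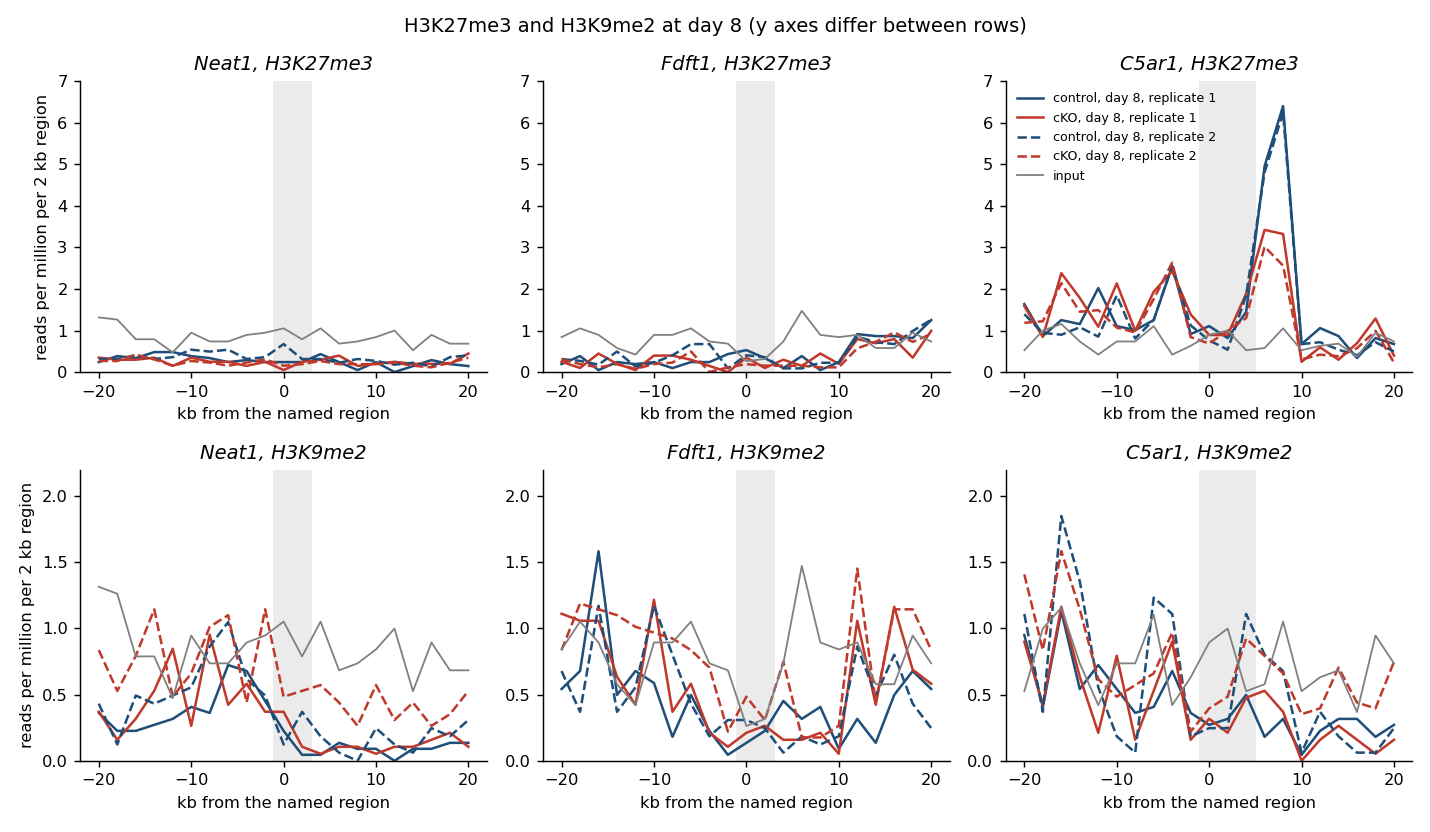
H3K27me3 (top) and H3K9me2 (bottom) at day 8 in RPM per 2 kb region (y axis, different between the rows) against the distance in kb from the named region (x axis), for control (blue), cKO (red) and input (grey), with replicate 1 solid and replicate 2 dashed. Grey bands mark the H3K9me3 runs. The highest H3K27me3 peak stands 6 to 8 kb beyond the C5ar1 named region, lower in both cKO libraries. A smaller rise stands at -4 kb, over the C5ar1 start, at 2.55 and 2.56 RPM in the controls and 2.43 and 2.64 in the cKO.

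In the limma fit to day 8 H3K27me3, 0 of 1255417 regions passed an adjusted p of 0.05 (0%) and 0 of 63 members did. At an unadjusted p under 0.05 there were 11 members, against 7.66% of all regions. The smallest adjusted p of a member was 0.583. The named region of *Neat1*, with 5 and 15 reads in the controls and 1 and 4 in the cKO, had a log2 change of -2.21 (SE 0.67, adjusted p = 0.587). The second region of the *Fdft1* run, with 7 and 8 against 2 and 4 reads, had -1.50 (SE 0.40, adjusted p = 0.583). Limma-voom on the recovered reads called 5408 regions over the genome and 0 members. The labels give the 4 day 8 H3K27me3 libraries consecutive antibody catalogue numbers, whereas the methods of the study list a single H3K27me3 antibody, and they were read as 1 antibody.

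At least 2-fold lower H3K27me3 at day 4 was seen in 12 of 63 members, against 8.02% of all regions, and in 1 of the 7 run regions. At day 8, 4 members were at least 2-fold lower in both pairs (background 1.64%) and 0 were at least 2-fold higher (background 1.33%). In replicate 2 alone there were 12 and in replicate 1 alone 10, against 8.05% and 8.17%. Of the 4, 2 lay in runs, the named region of *Neat1* and the second region at *Fdft1*. The others were a *Neat1* exon region 12 kb away (10 and 8 against 3 and 4 reads) and the region at the *Prr24* start site (14 and 15 against 5 and 8).

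The start sites of the neighbouring genes lay outside the H3K9me3 runs. The region of the *Neat1* start held 11 and 18 H3K9me3 reads in the day 8 controls and 2 and 6 in the cKO, beside 13 in input. That of *Fdft1* held 1 and 4 against 1 and 3, beside 16 in input. That of *C5ar1* held 13 and 10 against 4 and 19, beside 8 in input, and carried H3K27me3 at 53 and 57 against 49 and 69 reads. That of *Gpr77*, a further C5a receptor, held 13 and 15 H3K9me3 reads against 4 and 18, and that of *Prr24* 11 and 4 against 1 and 5. That of the noncoding *Gm9783* held 7 and 7 against 1 and 7. In RPM the H3K9me3 of these regions stayed under 2-fold of input in the day 8 controls. *Frmd8*, *Neil2* (a DNA repair glycosylase) and *Ccdc9* reach into the windows, but their start sites lie beyond 20 kb.

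Regions elsewhere with a like pattern over the 18 ChIP libraries were sought by the Pearson correlation of log2 RPM with each named region, among 869507 candidates. Because all libraries are shared and the mark and depth of a library enter every point, r is given as a description. For *Neat1* the nearest were regions 336030 bp from *Hnf4g* (r = 0.929), in *D11Wsu47e* (0.925) and 308699 bp from *Vgll3* (0.925). For *Fdft1* they were in *Atp9a* (0.920), *Vsig10* (0.912) and *Zfp275* (0.907). For *C5ar1* they were in *4933422H20Rik* (0.929), *Ifrd2* (0.895) and *Inpp5f* (0.889), the last being on the list of imprinted loci. TGCCGC was absent from the regions near *Hnf4g* and *Vgll3* and in *4933422H20Rik*, and present in the rest.

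The 3 named regions correlated with each other at 0.698 to 0.806, so each had regions elsewhere that resembled it more. In the *Atp9a* region H3K9me3 went from 65 and 43 reads in the day 8 controls to 3 and 8 in the cKO, and from 54 to 29 at day 4. In the *Inpp5f* region it went from 144 and 86 to 7 and 10 at day 8, and from 80 to 61 at day 4. Among the 9 regions the relative day 4 drop in reads was largest in *Atp9a*. Control and cKO reads at day 4 were 30 and 34 near *Hnf4g*, 66 and 67 in *Vsig10*, and 49 and 48 in *4933422H20Rik*. The rest held fewer in the cKO, by differing amounts, and the day 4 cKO library was the deeper one. All 9 regions held fewer H3K9me3 reads in both day 8 cKO libraries than in both controls, on which the measure of likeness partly rests.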

How the data were processed

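The authors trimmed reads with Trim Galore, aligned them to NCBIM37 with Bowtie2 2.2.9 (version per the submitters' processing notes), discarded alignments with a mapping quality under 20 and deposited the log2 of observed over expected reads per region, without input subtraction. Their methods give 1 kb regions, whereas the table holds 2 kb. Duplicate removal is not stated. Values in all 19 libraries stepped in whole reads (100% within 0.1 of a read), so reads were recovered. The authors entered 0.9 of a read where a region had none.

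Reads were summed over each run, after adding 0.5 reads per region to set its limits, and divided by library totals. Limits are exact binomial (Clopper-Pearson) 95% limits for counting error only. At day 8, same-numbered libraries were set against each other. The shared number only names these pairs, so errors of day 8 log2 changes are standard errors from the spread within each genotype, without pairing. H3K27me3 and H3K9me2 at day 8 were fitted with lmFit and eBayes of limma 3.58.1 under R 4.3.3 (2 libraries against 2, two-sided, Benjamini-Hochberg over all regions with a read). The fit was tested on simulated data. An exact permutation test of 2 against 2 cannot reach 0.05, so summed reads carry no p. Genes and sequence are from NCBIM37.

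The loci, the imprinted list and TGCCGC were chosen with earlier results of these data known. Named were the 3 loci with every run region, all genes in the windows, *Dnmt1*, and per locus the 3 most correlated regions elsewhere that had a mean of at least 10 reads in the H3K9me3 controls and lay at least 10 kb apart. Other regions were named after their values were seen. Alternatives were other scalings, run limits, input subtraction, mean log2 values, other limma settings and leaving out replicates.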

Additional observations from a re-analysis of the deposited data

How the results depend on the processing

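The lower H3K9me3 over the runs kept its direction under every alternative that gave a value, with log2 changes from -3.48 to -2.26 over 20 values at day 8 and from -1.85 to -0.70 over 17 at day 4. Subtracting input moved the day 4 change to -1.85 at *Neat1* and -1.51 at *C5ar1*. With the named region and 1 on each side, the *Fdft1* change at day 8 was -2.26. The mean of the deposited log2 values moved H3K9me2 at the *Neat1* run to 1.11. Input subtraction at day 8 left no positive cKO value in at least 1 pair at any of the 3 loci and gave no value, and a 3-fold limit left no run at *C5ar1*, whose named region stood at 2.72-fold in 1 control. Run lengths were 4 to 6 kb at *Neat1* and *Fdft1* and 6 to 8 kb at *C5ar1* under the other limits. Leaving out a replicate gave day 8 H3K9me3 changes of -3.48 to -2.71 at *Neat1*, -2.65 to -2.44 at *Fdft1* and -2.83 to -2.52 at *C5ar1*.

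With the replicate number as a block, 0 members were called for H3K27me3 and 0 for H3K9me2. The numbers were not taken to pair the samples, since deviations of same-numbered libraries correlated at 0.0726 and 0.0595 over 2 pairs. In all limma settings members called stayed at 0, with a smallest adjusted p of 0.0872 to 0.598 for H3K27me3 and 0.0700 to 0.986 for H3K9me2. With a trend in eBayes 3067 regions were called for H3K27me3 over the genome, and with limma-voom 5408. The cause was not tested. Runs hold few reads, 3 to 156 for H3K9me3, which limits every ratio.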
